A study of Mus musculus with 12 samples.

Results

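Cluster 20 is a small population of nuclei from dissected cortices of mouse embryos that the study names RGC 2, a kind of radial glial cell (RGC) with high Tcf7l2. Its general genes were those of radial glia, while its regional genes included high levels of midline and caudal forebrain genes and low levels of dorsal cortical genes. Six3 or Nkx2-1, genes of the rostral and ventral forebrain, were found in part of its nuclei, and also in part of those of Cluster 3, another RGC cluster. The members of Cluster 20 are all nuclei that the authors assigned to it, 661 of the 50550 nuclei (1.31%) in the tables of 11 embryos and 25 clusters. Levels, phases and differentially expressed genes (DEGs) were compared over the 9 embryos with at least 10 such nuclei, which hold 653 of them, because the embryo is the replicate and its nuclei share 1 library.

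The embryos came from C57BL/6J dams that received 1 intraperitoneal injection a day for 6 days, from embryonic day 8 to day 13. The agent was saline or 2.5 g/kg EtOH, given as 25% (v/v) EtOH in saline, so both groups carried the injections themselves. On embryonic day 14 the cortices were frozen, and single-nucleus RNA sequencing (snRNAseq) counted RNA molecules by unique molecular identifiers (UMIs), with 1 library per embryo. The saline embryos were S1-1 and S1-2 of dam S1 and S2-1, S2-2 and S2-4 of dam S2, and the EtOH embryos were E1-1 and E1-2 of dam E1 and E2-1 to E2-4 of dam E2. Dams S1 and E1 formed batch 1 and dams S2 and E2 batch 2, and each treatment rests on 2 dams whose embryos are littermates. The tests over embryos take littermates as independent.

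Radial glia are the stem cells of the developing brain. They line the ventricle, divide there, and give rise to neurons directly or through intermediate progenitors. Wnt ligands act on them through Frizzled and Lrp receptors, which stabilise beta-catenin, and beta-catenin then works with DNA-binding partners of the TCF/LEF family, of which Tcf7l2 is a member. Ednrb is the endothelin B receptor and Top2a a topoisomerase that dividing cells make. Along the forebrain, radial glia carry regional transcription factors: Emx1 belongs to the dorsal cortex, Otx2 and the Zic family to the midline and more caudal forebrain, Six3 to the rostral end and Barhl2, Irx and Lhx9 genes to the diencephalon. FGF8 and its relatives are secreted from the rostral midline, and Wnt ligands and R-spondins from the cortical hem.

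Depth differed between the groups. The median UMI number of a Cluster 20 nucleus was 9349, 8154, 8649, 7512 and 6764 in saline embryos S1-1, S1-2, S2-1, S2-2 and S2-4. In EtOH embryos E1-1, E2-1, E2-2 and E2-4 it was 3196, 7262, 5753 and 5077. The means were 8086 ± 999 (SD, n = 5) and 5322 ± 1686 UMIs (SD, n = 4), a difference of -2764 (two-sided exact permutation test over 126 assignments, p = 0.0238, and p = 0.0333 with labels exchanged only within batches). The call was lost (p = 0.0536 to 0.0571, exact permutation test) without S1-1, S1-2, S2-1, S2-2 or E1-1. The nuclei of an embryo summed to between 147129 UMIs in E1-1 and 2318272 in S2-1, so levels in S2-1 rest on the most counts. In their whole libraries the medians were 8365 to 9051 UMIs in 4 saline embryos, 6325 in S2-4 and 4072 to 6911 in the EtOH embryos, so S2-4 lay among the EtOH embryos. It was kept in the saline group as labelled, and whether its label is right was not tested. Cell barcodes were compared as written, and none was found in more than 1 library. A library tag within the barcodes would fix that outcome, so it does not show whether libraries share nuclei. Between the summed counts of any pair of embryos the chi-square per gene was 2.24 to 7.44, more than the sampling of UMIs alone gives. It does not allow for the sampling of few and unlike nuclei, so it does not measure differences between embryos beyond that. Doublets were not called, and 31 nuclei of Cluster 20 (4.69%) had over 20000 UMIs.

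Tcf7l2 was checked together with Ednrb and Top2a, and they set the cluster apart to different degrees. Tcf7l2 (chr19:55741820-55933654 of GRCm38, plus strand) was at 1057 ± 750 counts per 1000000 UMIs (CPM, SD, n = 9 embryos), rank 1 of the 25 clusters, with 464 CPM in Cluster 3, the next. With every nucleus thinned at random to 3000 UMIs and shallower ones left out, 78.0% of 628 nuclei held a Tcf7l2 UMI. Other RGC clusters held one in many nuclei too, 59.4% in Cluster 3, 52.0% in Cluster 2 and 35.2% in Cluster 21. The share was 3.94% in Cluster 1, callosal projection neurons (median depth before thinning 7303 UMIs in Cluster 20 and 6712 in Cluster 1). Shares in Cluster 1 are given here and below as a reference, pooled over embryos. How much of them is free RNA and how much the neurons' own expression was not tested. For Rspo3 the share was 31.2% in Cluster 1 and 4.71% in Cluster 3. Ednrb (chr14:103814625-103844402, minus strand) did not set the cluster apart, at 44.6 ± 26 CPM and rank 5 against 130 CPM in Cluster 3. It was found in 11.9% of thinned nuclei of Cluster 20, 12.4% of Cluster 2 (the study's RGC 1) and 1.27% of Cluster 1. Top2a (chr11:98992943-99024189, minus strand) ranked 5 as well, with a UMI in 35.8% of nuclei against 66.8% in Cluster 2 and 3.33% in Cluster 1. All these comparisons of clusters are descriptions without a test, since the clustering used the same counts.

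General radial glia genes placed Cluster 20 among progenitors. The 12 radial glia markers ranked 2 to 7 of 25 clusters, and the cluster ranked 2 for Slc1a3, a glutamate transporter (599.7 ± 267 CPM against 714 in Cluster 3), for Hes5, a Notch target (49.4 ± 20.7 CPM against 60.3) and for Nes, the filament protein nestin (50.8 ± 14.4 CPM against 63.6). Across 9250 genes its mean profile was most like that of Cluster 3, the interneuron precursor RGCs (Spearman's rho 0.95 across genes), followed by Cluster 2 (0.93). Genes are not independent replicates, and the clusters share the embryos' libraries. Markers of neurons were present at lower levels than in the neuron clusters but mostly at higher levels than in Cluster 2. Cluster 20 was above Cluster 2 for 8 of 8 interneuron, 7 of 8 projection neuron and 5 of 5 pan-neuronal markers. It was above Cluster 2 for only 5 of the 12 radial glia markers. The 8 interneuron markers summed to 253 to 904 CPM per embryo against 6116 CPM in the highest cluster, and the 8 projection neuron markers to 1717 to 3096 CPM against 11314. Microglial markers summed to 13.4 to 47.6 CPM with C1qa at 0 in all 9 embryos, vessel and meningeal markers to 5.91 to 40.8 CPM, and oligodendrocyte precursor markers to 0 to 30.4 CPM with Sox10 at 0, where the highest other cluster had 20.3 CPM.

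Midline and caudal genes were high in Cluster 20, and some of them were also high in the cortical hem RGCs of Cluster 21. A list of 20 patterning genes, mostly caudal and midline, also holds Six3 of the rostral end, Six6 and Rax. The 20 genes summed to between 1479 and 2164 CPM per embryo, against 982 CPM in Cluster 21, 233 in Cluster 3 and 178 in Cluster 2. Of the 20, 13 had their highest level of all clusters here. Sum and count thus do not measure caudal and midline genes alone. Zic4 was at 657 ± 59.8 CPM (SD, n = 9) and found in 78.0% of nuclei, while Cluster 21 had 284 CPM and 48.2%, Cluster 3 59.3 CPM and 11.8%, Cluster 2 27.9 CPM and 6.93% and the neurons of Cluster 1 2.01%. Zic1 was at 301 ± 20.1 CPM, and Cluster 21 came next with 165 CPM. Otx2 was at 188 ± 52.6 CPM, after 244 CPM in Cluster 21, while Cluster 2 had 1.83 CPM. An Otx2 UMI was found in 43.3% of Cluster 20 nuclei, 46.2% of Cluster 21, 10.2% of Cluster 3, 0.515% of Cluster 2 and 0.283% of Cluster 1.

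Genes of the dorsal cortex were low beside Cluster 2, as they also were in Cluster 3. Emx1, the dorsal cortical factor, was at 21.4 ± 13.3 CPM and in 3.66% of thinned nuclei, against 75.0 CPM and 19.9% in Cluster 2, 41.4 CPM and 10.9% in Cluster 21 and 8.29 CPM and 1.56% in Cluster 3. The share here was also below the 8.70% in the neurons of Cluster 1. Lhx2, which specifies cortex, was at 90.0 ± 25.5 CPM against 291 in Cluster 2, 82.4 in Cluster 3 and 40.02 in Cluster 21. Pax6, a factor of cortical progenitors, was at 135 ± 48.6 CPM against 336, 139 and 69.9 in the same clusters. Before the final clustering the study left out a cluster of thalamic cells with Ntng1 and Tcf7l2, which was biased to only 3 of the samples. The study gives variable collection of tissue beside the cortex as the likely reason. Whether those samples are the embryos with high Tcf7l2 described below was not tested. Which tissue next to the cortex each dissection took in was not tested here.

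Genes of the FGF8 family were at their highest in this cluster. Of 17 genes of the FGF pathway, 12 had their highest level in Cluster 20. The ligand gene Fgf8 was at 15.8 ± 10.8 CPM against 0.577 CPM in Cluster 21, the next, Fgf17 at 16.3 ± 12.3 CPM against 1.19, and Fgf15 at 52.1 ± 23.2 CPM against 17.8 in Cluster 3. The feedback inhibitors that FGF signalling switches on ranked 1 too, with Spry1 at 43.6 ± 24.4 CPM (20.2 in Cluster 21), Spry2 at 37.1 ± 15.6 CPM (19.7 in Cluster 3) and Il17rd, also called Sef, at 313 ± 140 CPM (50.01 in Cluster 21). An Il17rd UMI was found in 39.3% of thinned nuclei against 1.51% in Cluster 1. Etv4 and Etv5, transcription factors downstream of FGF receptors, were at 24.1 ± 12.3 and 83.6 ± 39.9 CPM, each rank 1.

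Other genes had far more of their level in this cluster than in the next. By the ratio of the mean level to that of the next highest cluster, among genes of at least 20 CPM, the 12 leading genes were Pax8, Pax2, Cdh19, Wnt3, Lgr6, Il17rd, Megf11, Pax3, Gm29478, Gm20757, Fli1 and Hpse2. Pax8, a paired-box factor of the midbrain-hindbrain boundary, thyroid and kidney, was at 35.8 ± 39.9 CPM against 0.130 CPM in Cluster 17, and found in 4.94% of thinned nuclei against 0 of 4239 in Cluster 1, which allows up to 0.0708% of nuclei with a UMI and does not limit those that express it below detection. Its relative Pax2 was at 34.1 ± 36.6 CPM against 2.53. The long non-coding RNA Gm29478 reached 6960 ± 1796 CPM, with 1489 CPM in Cluster 21, and was present in 98.3% of all 661 nuclei. Megf11, a transmembrane protein of cell spacing, was at 864 ± 235 CPM against 160 in Cluster 6. Most of these genes were detected in a minority of nuclei, such as Cdh19, a cadherin found in 4.54% of the 661. At such low levels a nucleus that expresses the gene can hold no UMI of it. Detection thus does not show that expression was confined to those nuclei.

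The nuclei of Cluster 20 did not share 1 regional profile, and embryos differed in which profile they held. In the order S1-1, S1-2, S2-1, S2-2 and S2-4 for saline and E1-1, E2-1, E2-2 and E2-4 for EtOH, which all further lists follow, Tcf7l2 was at 563, 689, 1703, 573 and 625 CPM in saline and 510, 2647, 1574 and 627 CPM in EtOH embryos. S2-1, E2-1 and E2-2 thus stood above the other 6 embryos, which lay between 510 and 689 CPM, and the treatments overlapped. Genes of the diencephalon and Wnt3 were high in those 3 embryos and in S2-2. Wnt3, a ligand that activates beta-catenin, was at 2.98, 0, 44.4, 33.0 and 0 CPM in saline and 0, 96.5, 42.5 and 0 CPM in EtOH embryos. Barhl2 was at 4.47, 0, 36.7, 31.1 and 0 CPM in saline and 0, 57.3, 31.9 and 0 CPM in EtOH embryos. Lhx9 was at 14.9, 16.6, 57.4, 33.0 and 0 CPM and 0, 159, 72.9 and 17.7 CPM, and Irx5 at 0, 0, 8.20, 7.32 and 0 CPM and 0, 36, 18.2 and 0 CPM. All of these embryos are of dams S2 and E2, and for Wnt3, Barhl2 and Irx5 the other 5 embryos were at or under 4.47 CPM.

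Rostral and FGF-linked genes had another order of embryos. Six3 was at 64.1, 106, 55.2, 78.7 and 79.8 CPM in saline and 47.6, 4.91, 48.6 and 101 CPM in EtOH embryos, lowest in E2-1, where Tcf7l2 was highest. Il17rd was at 293, 391, 204, 438 and 243 CPM in saline and 530, 85.1, 216 and 414 CPM in EtOH embryos, again lowest in E2-1. Wnt5b, a ligand whose mean of 244 CPM was the highest of the 25 clusters, was at 335, 226, 145, 192 and 295 CPM in saline and 374, 34.4, 211 and 384 CPM in EtOH embryos. For these genes E2-1 lay below every other embryo and the ranges of the treatments overlapped.

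The Pax genes formed a further pattern. Pax8 was at 8.94, 35.2, 9.06, 60.4 and 0 CPM in saline and 122, 0, 27.4 and 59.1 CPM in EtOH embryos, and Pax2 at 10.4, 8.28, 30.2, 43.9 and 10.4 CPM and 116, 1.64, 21.3 and 65.0 CPM. Pax3, a factor of the dorsal neural tube, was at 0, 10.3, 2.59, 218 and 3.47 CPM in saline and 34.0, 0, 86.6 and 17.7 CPM in EtOH embryos, so that S2-2 alone stood far above the rest. Rspo3, a secreted amplifier of Wnt signalling, was at 247, 22.8, 383, 1097 and 86.8 CPM in saline and 27.2, 1378, 539 and 47.3 CPM in EtOH embryos. S2-2 and E2-1 were the highest, and values within a treatment spanned more than the means of the treatments differed.

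**Figure D1:**
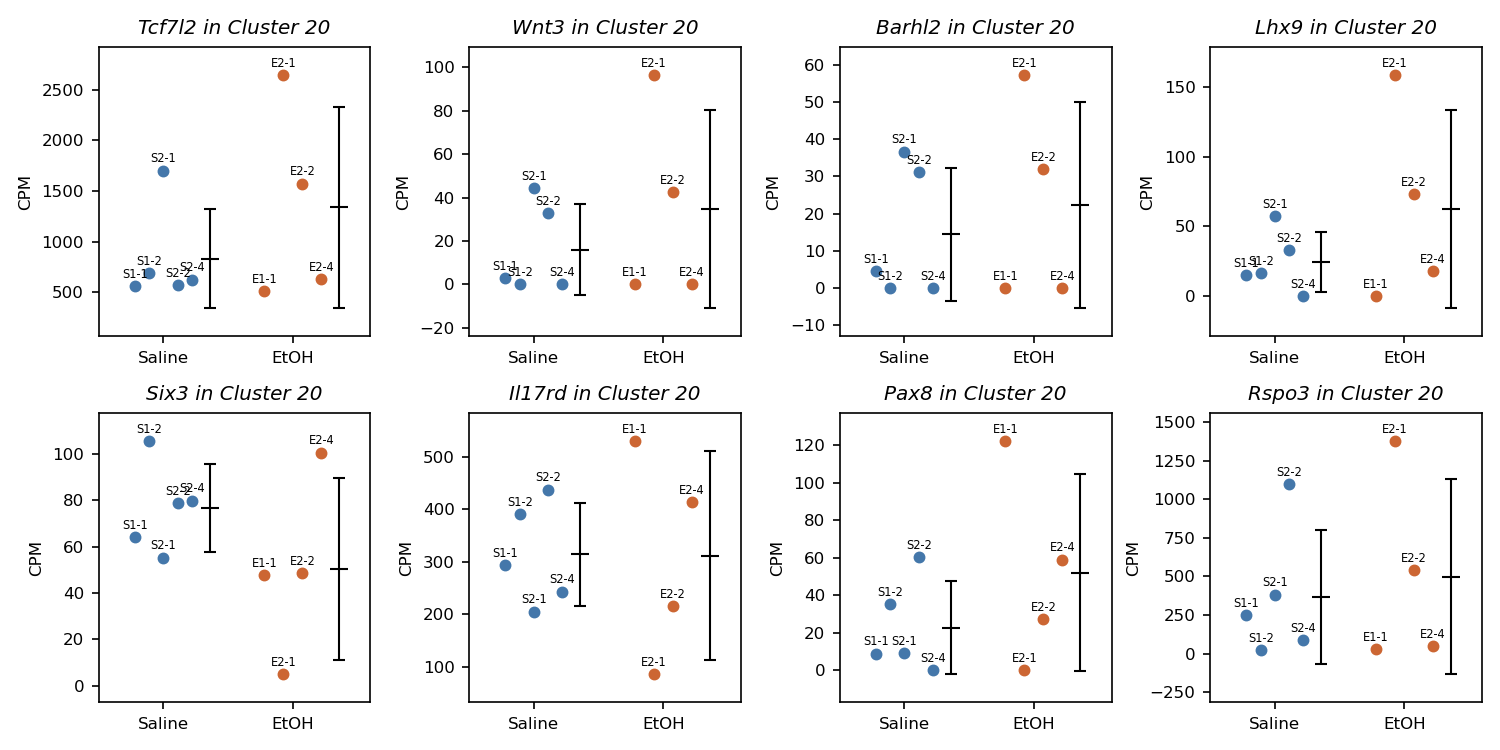
Levels of 8 regional and signalling genes in Cluster 20, in CPM on the y axis, with 1 point per embryo and the mean ± SD of the 5 saline and 4 EtOH embryos. Tcf7l2, Wnt3, Barhl2 and Lhx9 are highest in E2-1, while Six3 and Il17rd are lowest there, and in each panel the 2 treatments overlap.

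Of the midline genes, Zic4 and Zic1 varied little between embryos and Otx2 varied more. Zic4 was at 697, 664, 562, 762 and 691 CPM in saline and 673, 587, 638 and 639 CPM in EtOH embryos. Zic1 was at 289, 267, 295, 298 and 285 CPM and 333, 312, 312 and 319 CPM. Every EtOH embryo lay above every saline embryo, as for 1.9% of all genes tested, but the difference did not pass the test across all genes (log2 fold change 0.13, SE 0.11, adjusted p = 0.763). Otx2 was at 182, 232, 185, 300 and 139 CPM in saline and 122, 190, 182 and 160 CPM in EtOH embryos, with overlapping groups (log2 fold change -0.32, SE 0.21, adjusted p = 0.655).

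Within embryos, too, Tcf7l2 divided the nuclei. At 3000 UMIs per nucleus the median number of Tcf7l2 UMIs was 1, 2, 3, 1 and 1 in saline and 1, 8, 3 and 1 in EtOH embryos, and the highest numbers were 27 in S2-1 and 32 in E2-2. The share of nuclei with 6 or more was 1.82, 6.67, 37.4, 5.08 and 9.76% in saline and 5.26, 65.7, 36.2 and 19.2% in EtOH embryos. Nuclei without any Tcf7l2 UMI made up 27.3, 26.7, 16.4, 33.9 and 39.0% in saline and 31.6, 5.97, 19.1 and 30.8% in EtOH embryos. The same 3 embryos with the highest Tcf7l2 level had the most nuclei with 6 or more UMIs and the fewest with 0.

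**Figure D2:**
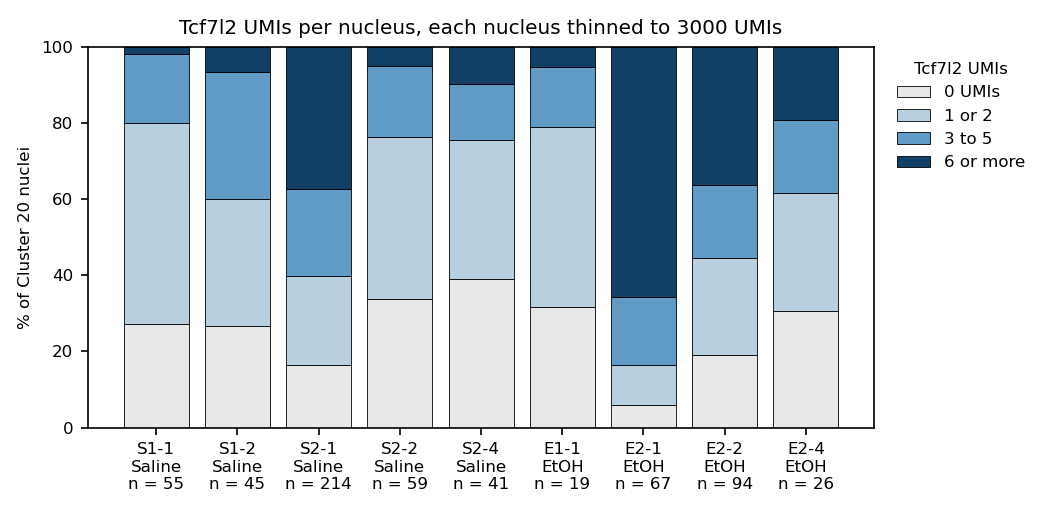
Share of Cluster 20 nuclei (y axis, percent) with 0, 1 to 2, 3 to 5 and 6 or more Tcf7l2 UMIs after thinning to 3000 UMIs, as stacked bars with 1 bar per embryo. S2-1, E2-1 and E2-2 have 36.2 to 65.7% of nuclei in the highest class, and the other embryos 1.82 to 19.2%.

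Nuclei with 6 or more Tcf7l2 UMIs were set against nuclei with 2 or fewer within the 4 embryos that had at least 5 of each, S2-1, E2-1, E2-2 and E2-4. Wnt3 was found in 22.5% of high and 0% of low nuclei in S2-1, 18.2 and 9.09% in E2-1, 20.6 and 0% in E2-2, and in none of either kind in E2-4. Lhx9 was found in 26.3 and 1.18% in S2-1, 31.8 and 0% in E2-1, 14.7 and 4.76% in E2-2, and again in none in E2-4. Over all embryos Lhx9 was found in 9.55% of nuclei of Cluster 20, 8.05% of Cluster 2 and 5.90% of Cluster 1. The low nuclei lay under each of these shares. Six3 had the opposite order, with 3.75 and 17.6% in S2-1, 0 and 9.09% in E2-1, 2.94 and 16.7% in E2-2, and 0 and 25% in E2-4. Wnt5b was in 10.0 and 36.5%, 6.82 and 9.09%, 8.82 and 42.9%, and 40 and 56.3% of nuclei. Zic4 was found in 76.3 and 82.4%, 84.1 and 81.8%, 76.5 and 73.8%, and 80.0 and 75.0%, and so in about the same share of both. The low group of E2-1 holds 11 nuclei and the high group of E2-4 5, so the shares there are coarse. These shares are descriptions, since nuclei of an embryo are not replicates.

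Few nuclei held caudal genes together with Six3 or Nkx2-1, a factor of the ventral forebrain, by sets chosen after their values were seen. Of the 628 thinned nuclei, 142 (22.6%) held a UMI of Six3 or Nkx2-1, 119 (18.9%) of a caudal gene (Barhl2, Irx1, Irx2, Irx3, Irx5, Olig3 or Wnt3) and 2 (0.318%) of both, of which 1 was in S2-1 and 1 in E2-1. Pax2, Pax3, Pax7 or Pax8 was found in 72 nuclei (11.5%), and 329 nuclei (52.4%) had none of the 3 kinds. In Cluster 1 a UMI was found in 0.401% of nuclei for Six3, 0.212% for Nkx2-1, 0.0472% for Barhl2, 0.0708% for Wnt3 and 0.543% for Pax2. A Pax gene was found together with Six3 or Nkx2-1 in 25 nuclei (3.98%) and with a caudal gene in 7 (1.11%). The share with a caudal gene was 1.82, 0, 21.5, 18.6 and 0% in saline and 0, 58.2, 23.4 and 0% in EtOH embryos. The share with Six3 or Nkx2-1 was 18.2, 44.4, 24.3, 23.7 and 26.8% in saline and 21.1, 1.49, 16 and 53.8% in EtOH embryos. Each treatment held embryos where nearly no nucleus had a caudal UMI and embryos where many had one. The shares of 0% rest on 45 nuclei in S1-2, 41 in S2-4, 19 in E1-1 and 26 in E2-4, too few to exclude caudal nuclei there. Depth at 3000 UMIs leaves many nuclei unassigned.

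Over the 9 embryos and 4174 genes of at least 50 CPM, the level most like that of Tcf7l2 was that of Rsrc1, a splicing factor gene (Pearson's r 0.98), followed by Arnt2, a transcription factor (0.93), Crim1 (0.93) and Ago1 (0.93). The most opposite were Arid1b, a subunit of a chromatin remodelling complex (-0.96), Nfia (-0.95) and Slco3a1 (-0.94). These correlations rest on 9 points that share the composition of each library, and 3 embryos carry the spread of Tcf7l2.

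Whether EtOH changes the size of this population was asked from the share of each embryo's nuclei in Cluster 20. It was 0.746, 0.953, 3.66, 1.35 and 0.568% in saline embryos. In EtOH embryos E1-1, E1-2, E2-1, E2-2, E2-3 and E2-4 it was 1.17, 0.298, 1.76, 1.95, 0.0426 and 0.774%. S2-1 alone gave 220 nuclei, 33.3% of the cluster, while E1-2 and E2-3 gave 7 and 1. The means were 1.45 ± 1.26% (SD, n = 5) and 1.00 ± 0.771% (SD, n = 6), a difference of -0.455 percentage points that did not exceed the spread between embryos (two-sided exact permutation test over 462 assignments, p = 0.532, and p = 0.510 within batches). Without S2-1 the difference was 0.0947 points in the other direction. As a share of RGC nuclei the means were 5.43 ± 4.28 and 4.93 ± 4.06% (p = 0.861, same exact permutation test).

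The study asked whether EtOH shifts these RGCs between phases of the cell cycle. Each nucleus was called G1, S or G2/M from its scores for the authors' 9 S genes and 12 G2/M genes. G2/M nuclei made up 22.8, 37.5, 39.1, 23.3 and 34.1% in saline and 23.5, 17.9, 24 and 13.3% in EtOH embryos, so E1-1 and E2-2 lay within the saline range and E2-1 and E2-4 below it. The means were 31.4 ± 7.79% (SD, n = 5) and 19.7 ± 5.05% (SD, n = 4), a difference of -11.7 points that did not pass the test (two-sided exact permutation test, p = 0.0794, or 0.119 after adjustment for 3 phases, and adjusted p = 0.15 within batches). G1 nuclei made up 38.6, 35.4, 25.5, 40 and 24.4% in saline and 41.2, 52.2, 35.4 and 53.3% in EtOH embryos, with means of 32.8 ± 7.36 and 45.5 ± 8.70% and a difference of 12.8 points (exact permutation p = 0.0794, adjusted p = 0.119). S phase nuclei made up 38.6, 27.1, 35.5, 36.7 and 41.5% in saline and 35.3, 29.9, 40.6 and 33.3% in EtOH embryos (35.9 ± 5.40 and 34.8 ± 4.50%, exact permutation p = 0.746). The 95% Wilson interval of a phase in 1 embryo spanned 11.4 to 33.6 points, for counting error alone.

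Phase calls depend on depth, and depth was lower in EtOH embryos. With each nucleus thinned to 2000 UMIs before scoring, which keeps 643 of 653 nuclei and 28 of the 34 in E1-1, G1 made up 32.2 ± 4.34% in saline (25.6 to 35.7%, n = 5) and 47.1 ± 9.06% in EtOH embryos (38.8 to 58.6%, n = 4). At that equal depth the groups did not overlap, with a difference of 15 points and the smallest p that the exact permutation test can give (0.00794, adjusted p = 0.0238). S phase made up 37.7 ± 4.30% (33.3 to 44.6%) and 30.5 ± 1.73% (28.6 to 32.6%), a difference of -7.14 points (exact permutation p = 0.0159, adjusted p = 0.0238). These thinned results rest on 1 random draw. They were not repeated within batches, by dam or with an embryo left out. Unthinned and with all 11 embryos, which adds the 7 nuclei of E1-2 and the 1 of E2-3, the S difference turned to 6.38 points and the G1 difference fell to 2.35, and neither passed. In the thinned nuclei of the 9 embryos, G2/M made up 30.2 ± 7.65 and 22.4 ± 8.97% (p = 0.190, same exact permutation test). G1 was thus the phase with a higher share after EtOH in the thinned counts, and the G2/M difference did not pass the test at either depth. For comparison, G2/M nuclei made up 46.8 and 46.6% of Cluster 2, 33.3 and 27.1% of Cluster 3 and 26.5 and 19.3% of Cluster 21 in saline and EtOH embryos, without thinning. G1 nuclei made up 8.19 and 9.21% of Cluster 2, 17.5 and 20.1% of Cluster 3 and 50.5 and 58.9% of Cluster 21. Whether these differences differ from that in Cluster 20 was not tested, nor was the part of free RNA in the phase calls.

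**Figure D3:**
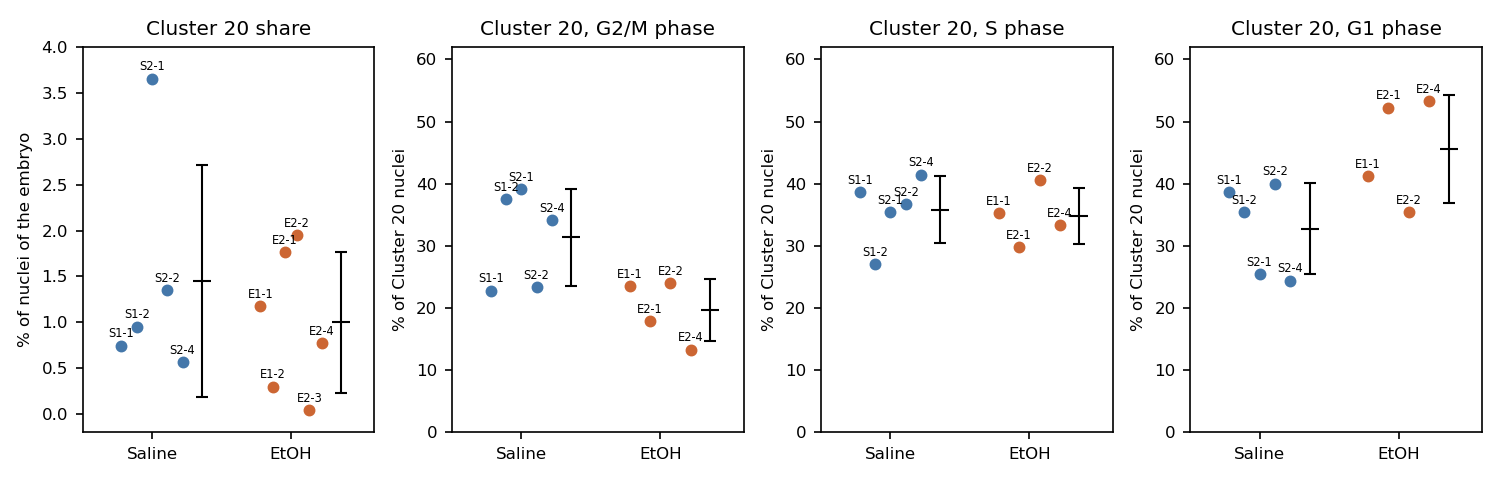
Percent of each embryo's nuclei in Cluster 20 (11 embryos), and percent of Cluster 20 nuclei called G2/M, S and G1 (9 embryos), with 1 point per embryo and the mean ± SD of each treatment. S2-1 stands apart at 3.66% of nuclei, and the G1 share averages 32.8% in saline and 45.5% in EtOH embryos with overlapping points.

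Single genes of the cycle were tested with all others by edgeR's quasi-likelihood test on counts summed per embryo, with Benjamini-Hochberg adjustment. Of 7669 genes tested, 4 (0.0522%) were called DEGs at an adjusted p under 0.05 together with a rise of over 25% or a fall of over 20%, and no cycle gene was among them. Mki67, which marks dividing cells, came nearest of them. It was at 182, 234, 230, 187 and 219 CPM in saline and 129, 146, 125 and 88.7 CPM in EtOH embryos, and every EtOH embryo lay below every saline embryo (log2 fold change -0.76, SE 0.16, adjusted p = 0.169). Of all genes tested, 1.67% had EtOH embryos entirely below saline embryos. By the same edgeR test Mki67 was also lower after EtOH in Cluster 3 (log2 fold change -0.42, SE 0.12, adjusted p = 0.125) and Cluster 2 (-0.22, SE 0.11, adjusted p = 0.271). Neither passed, and the log2 fold changes of Top2a there were 0.03 (SE 0.10) and 0.24 (SE 0.14). Top2a was at 322, 418, 449, 309 and 396 CPM in saline and 272, 355, 318 and 183 CPM in EtOH embryos, with overlapping groups (log2 fold change -0.41, SE 0.18, adjusted p = 0.455).

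The mitosis genes and the DNA replication genes each leaned 1 way as a group. Of 25 mitosis genes, 22 were tested and 0 were called, 21 had a log2 fold change below 0, and the median was -0.44, beside 0.0015 over all 7669 genes, of which 3823 were below 0. At an unadjusted p under 0.05, 10 of the 22 were lower and 0 higher, where 4.79% of all genes tested were lower and 5.62% higher. Kif11, a motor of the spindle, had a log2 fold change of -0.99 (SE 0.27, adjusted p = 0.240) and Bub1, a kinase of the spindle checkpoint, -0.89 (SE 0.31, adjusted p = 0.322). The summed level of the 25 genes was 2276, 3311, 3324, 2195 and 2877 CPM in saline and 2549, 2063, 2015 and 1271 CPM in EtOH embryos, so only E1-1 lay within the saline range. Of 24 DNA replication genes, 16 were tested and 0 called, 15 were below 0, and the median was -0.40. At an unadjusted p under 0.05, 6 of the 16 were lower. Prim2, a subunit of primase, was at 128 to 233 CPM in saline and 94.9 to 114 CPM in EtOH embryos (log2 fold change -0.64, SE 0.18, adjusted p = 0.240), and Hells, a helicase of replicating chromatin, had a log2 fold change of -0.85 (SE 0.25, adjusted p = 0.244). The summed level of the replication genes was 1353, 1231, 1724, 1370 and 1898 CPM in saline and 1196, 1142, 1115 and 993 CPM in EtOH embryos, with no overlap. Of the authors' G2/M genes 8 were tested, with 7 below 0 and a median of -0.30. Of their S genes 7 were tested, with 4 below and 3 above 0 and a median of -0.16, so the S list did not lean 1 way. Among the authors' S genes, Mcm7 had a log2 fold change of 0.93 (SE 0.27, adjusted p = 0.241) and Atad2 one of -0.56 (SE 0.16, adjusted p = 0.241), and neither passed. With nuclei thinned to 2000 UMIs, 11 mitosis genes could be tested, with a median of -0.41 and 10 below 0, and 4 replication genes, with a median of -0.51 and 4 below 0. In the same fit Top2a had a log2 fold change of -0.16 (SE 0.31, adjusted p = 0.967). Neuronal genes did not move as 1 group beside them. All 5 pan-neuronal genes tested were above 0 (median 0.26, summed level 1397 to 1910 CPM in saline and 1558 to 2135 CPM in EtOH embryos), 4 of 5 thalamic neuron genes were above 0 (median 0.65, 1909 to 2459 and 1936 to 2746 CPM) and 5 of 6 projection neuron genes were below 0 (median -0.27). None of these was called, and their part in the cycle genes was not tested. A Top2a UMI at 3000 UMIs was found in 29.1, 37.8, 45.8, 33.9 and 31.7% of nuclei in saline and 42.1, 29.9, 26.6 and 19.2% in EtOH embryos, with overlapping groups. Without a filter on low counts 8 of 25 mitosis and 2 of 23 replication genes were among 195 called of 19867 tested, and 1 mitosis gene was among 159 called of 7669 with limma voom and the dam as a random block. The correlation within dams in the limma fit was -0.101. How far the sums follow the number of dividing nuclei or the RNA in each was not tested.

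**Figure D4:**
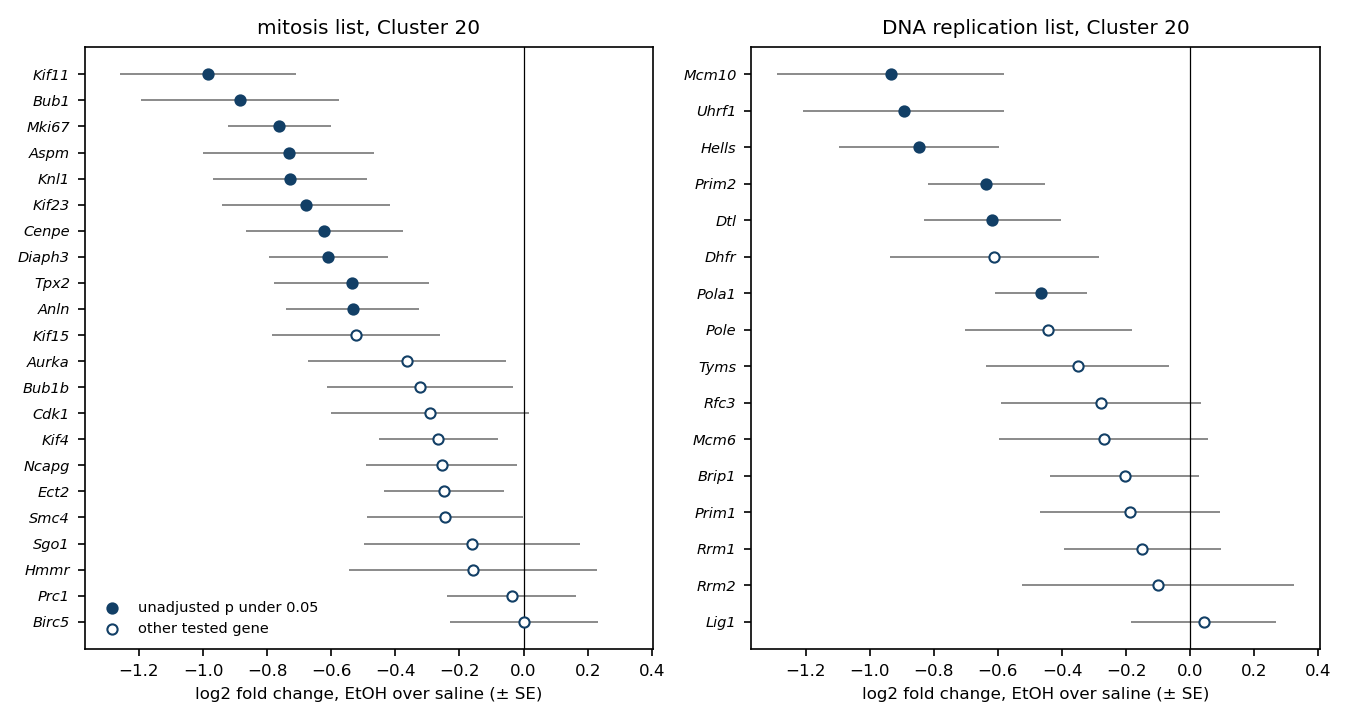
Log2 fold change, EtOH against saline, with its SE (x axis) for the 22 mitosis and 16 DNA replication genes tested in Cluster 20, 1 row per gene. Filled points have an unadjusted p under 0.05, and 21 of the 22 mitosis and 15 of the 16 replication points lie below 0, from -0.99 for Kif11 upwards.

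The 4 DEGs were all higher after EtOH, each with an adjusted p of 0.0289. Gm26518, a long non-coding RNA (chr15:102455526-102483722, minus strand), was at 49.2, 72.4, 56.1, 62.3 and 93.7 CPM in saline and 170, 152, 164 and 154 CPM in EtOH embryos (log2 fold change 1.30, SE 0.18). Gm26742, another long non-coding RNA, was at 10.4, 10.3, 9.92, 16.5 and 17.4 CPM in saline and 74.8, 47.4, 44.1 and 35.5 CPM in EtOH embryos (log2 fold change 1.99, SE 0.30). Mycbp (chr4:123904832-123912269, plus strand), which encodes a protein that binds Myc, was at 11.9, 12.4, 12.1, 16.5 and 17.4 CPM and 47.6, 37.6, 42.5 and 53.2 CPM (log2 fold change 1.66, SE 0.26). For these 3 genes every EtOH embryo lay above every saline embryo, as for 1.9% of all genes tested. Gm26835, also a long non-coding RNA (chr10:13967024-14007405, minus strand), was at 17.9, 24.8, 22.4, 25.6 and 48.6 CPM in saline and 47.6, 116, 103 and 76.9 CPM in EtOH embryos (log2 fold change 1.84, SE 0.28), and S2-4 reached into the EtOH range.

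Each of the 4 genes overlaps a gene on the other strand, as do 47 of the 96 genes whose positions were looked up. Gm26518 overlaps Pcbp2, Prr13 and Gm24128, Gm26742 overlaps Zfp608, Gm26835 overlaps Hivep2 and Mycbp overlaps Gm12905 and Gm26606. Cell Ranger was run at its default settings, and which strand these count is not given in the sources used here, so reads of the 2 partners may not be told apart. Gm24128 was not examined. Of the remaining partners, Prr13 was too low to be tested and the other 5 did not pass, with a log2 fold change of -0.19 for Pcbp2 (SE 0.17, adjusted p = 0.786), 0.12 for Zfp608 (SE 0.20, adjusted p = 0.912) and 0.22 for Hivep2 (SE 0.24, adjusted p = 0.828), and -0.21 and 0.06 for Gm12905 and Gm26606 (adjusted p = 0.899 and 0.997).

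The 4 genes had positive fold changes in other RGC clusters too, and 1 saline embryo bore on them. In Clusters 2 and 3 their log2 fold changes were 0.80 and 0.77 for Gm26518, 0.99 and 1.38 for Gm26742, 0.57 and 0.89 for Gm26835, and 0.69 and 0.82 for Mycbp, and none was called there. In both clusters S2-4 lay at or near the EtOH level. Gm26518 was at 142 CPM in Cluster 2 of S2-4, where the EtOH embryos had 120 to 165 CPM, and at 154 CPM in Cluster 3, where they had 143 to 167 CPM. Mycbp was at 44.2 CPM in Cluster 2 of S2-4, above the 30.8 to 41.5 CPM of the EtOH embryos. S2-4 also had the lowest median depth of the saline libraries. At an equal depth of 2000 UMIs in Cluster 20, Gm26518 had a log2 fold change of 1.47 (SE 0.28, adjusted p = 0.101), and the other 3 genes were too low to be tested. Without S2-4 the count of DEGs in Cluster 20 was 84 (77 higher and 7 lower, the 4 among them), without E1-1 it was 7, without S2-2 it was 2, and without any other 1 embryo it was 0. The count was also 0 with batch as a covariate and with counts summed per dam, where the log2 fold changes of the 4 genes were 1.29 to 2.02 and 1.37 to 2.13, and with nuclei thinned to 2000 UMIs. It was 16 by DESeq2. Of the 7669 genes, 798 (10.4%) had an unadjusted p under 0.05.

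**Figure D5:**
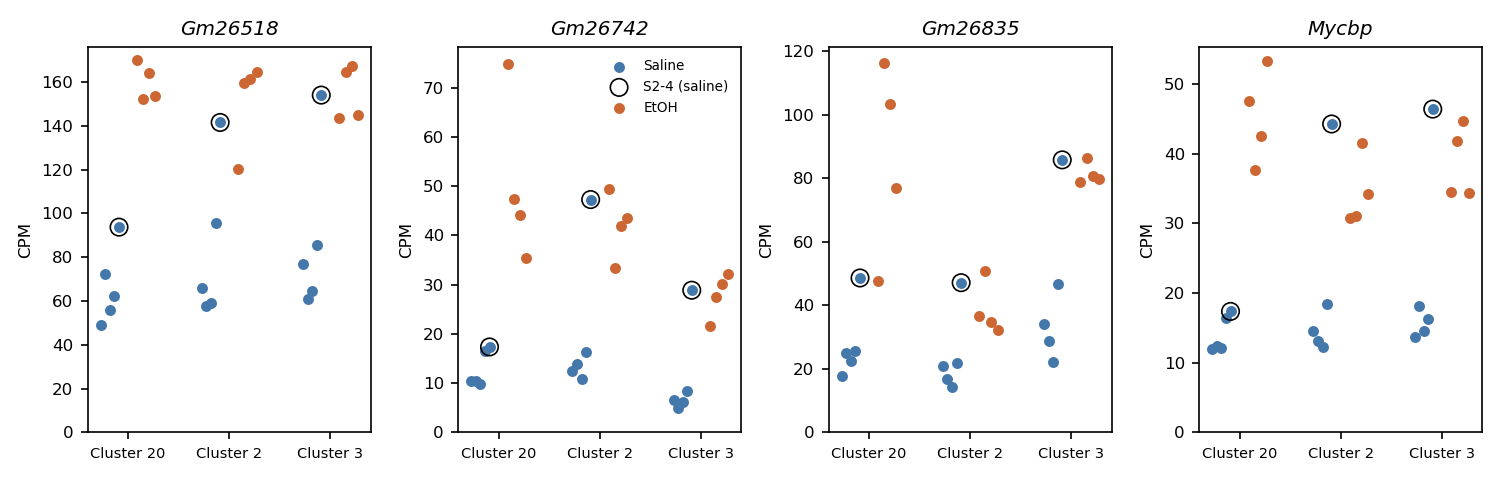
Levels in CPM (y axis) of Gm26518, Gm26742, Gm26835 and Mycbp in Clusters 20, 2 and 3, with 1 point per embryo and saline embryo S2-4 ringed. In Cluster 20 the EtOH embryos lie above the saline embryos for 3 of the genes, while in Clusters 2 and 3 S2-4 lies within or above the EtOH embryos.

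The Wnt pathway was followed by role, since Tcf7l2 acts at its end. Of 19 Wnt ligands 5 could be tested, of 16 receptors 8, of 9 R-spondin genes with their receptors 7, of 10 secreted antagonists 2, of 16 genes of the beta-catenin and TCF complexes 14 and of 10 feedback and target genes 7, and 0 of them were called, where 0.0522% of all genes tested were. Tcf7l2 itself had a log2 fold change of 0.70 (SE 0.57, adjusted p = 0.755) on the values above, but 0.10 without E2-1, 1.14 without S2-1, 1.32 with at least 40 nuclei per embryo (of the EtOH embryos only E2-1 and E2-2, both of dam E2) and 0.26 with counts summed per dam, none of which passed. Ednrb had one of 0.04 (SE 0.52, adjusted p = 1.00), from 65.5, 68.3, 38.0, 11 and 62.5 CPM in saline and 13.6, 68.7, 62.3 and 11.8 CPM in EtOH embryos. Ednrb lay between 11 and 13.6 CPM in S2-2, E1-1 and E2-4 and at 38.0 CPM or more in the others. The coreceptor gene Lrp6 was at 238, 259, 258, 262 and 298 CPM in saline and 177, 205, 204 and 207 CPM in EtOH embryos, without overlap, as for 1.67% of all genes tested, and did not pass (log2 fold change -0.41, SE 0.12, adjusted p = 0.244). Sfrp1, a secreted inhibitor of Wnt ligands, had a log2 fold change of -1.01 (SE 0.31, adjusted p = 0.259) and Tle1, a corepressor, one of -0.76 (SE 0.29, adjusted p = 0.383).

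Target and feedback genes of the Wnt pathway varied between embryos of each treatment. Axin2, a feedback inhibitor that beta-catenin switches on, was at 34.3, 26.9, 48.3, 93.4 and 48.6 CPM in saline and 68.0, 85.1, 60.8 and 23.7 CPM in EtOH embryos (log2 fold change 0.33, SE 0.36, adjusted p = 0.83). Lef1 was at 173, 114, 151, 315 and 163 CPM and 197, 345, 261 and 71.0 CPM (log2 fold change 0.33, SE 0.41, adjusted p = 0.856). Apcdd1, another inhibitor, was at 50.6, 14.5, 113, 309 and 52.1 CPM and 20.4, 293, 112 and 11.8 CPM. S2-2 and E2-1, the embryos with the most Rspo3, had the highest values of all 3 genes among the saline and the EtOH embryos. The study names Rspo2 as lower after EtOH across cell types, and its text does not place that change in this cluster. Rspo2 was at 29.8, 0, 76.8, 366 and 6.94 CPM in saline and 143, 1.64, 4.56 and 5.91 CPM in EtOH embryos, with 19.1% of its UMIs in 1 nucleus (log2 fold change -2.29, SE 1.78, adjusted p = 0.740). Cortical hem markers were lower here than in the hem cluster. The 6 hem genes summed to 32.7 to 474 CPM per embryo against 5786 CPM in Cluster 21, where Rspo2 was found in 93.8% of nuclei, against 6.53% here.

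In the other pathways no gene was called either, which at 0.0522% called of all genes tested says nothing particular of any list. Of the Sonic hedgehog pathway 8 genes were tested, and Gli3, its main repressor in the dorsal forebrain, was at 913, 737, 800, 989 and 781 CPM in saline and 523, 442, 655 and 579 CPM in EtOH embryos, without overlap, as for 1.67% of all genes tested (log2 fold change -0.64, SE 0.15, adjusted p = 0.180). Of the FGF pathway 12 were tested, with Fgfr2 at a log2 fold change of 0.48 (SE 0.17, adjusted p = 0.314) and Fgf15 at 0.73 (SE 0.26, adjusted p = 0.335). Notch (13 tested), BMP (7) and retinoic acid genes (2) had 0 called, as did apoptosis and p53 (9), oxidative stress (7) and alcohol metabolism genes (5). All 7 oxidative stress genes had a log2 fold change above 0, with a median of 0.18. Aldh1b1, an aldehyde dehydrogenase of mitochondria, had the highest log2 fold change of the alcohol genes, 1.32 (SE 0.47, adjusted p = 0.335). Of 15 genes taken as those the study names as changed after EtOH, a list chosen on these samples, 11 could be tested and 0 were called. The study names them as recurring across cell types, by a test over nuclei, and its text does not place them in this cluster. Here the embryo was the unit, so the 0 called is not a test of that claim. The study prints Hgma, read here as Hmga2, and Fam19a without a member number, so the list is a reading of its symbols. Hmga2, a chromatin protein of early progenitors, had a log2 fold change of -0.87 (SE 0.26, adjusted p = 0.267) and Egfr one of 1.12 (SE 0.48, adjusted p = 0.432).

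Cell identity genes gave the same count, again beside 0.0522% of all genes tested. None of the 12 radial glia markers was called (7 below 0, median -0.05). Nor was any of the 10 genes tested of the caudal and midline list, which also holds Six3, or of 5 telencephalic genes. At 3000 UMIs Otx2 was found in 32.7, 44.4, 44.9, 62.7 and 26.8% of nuclei in saline and 42.1, 44.8, 42.6 and 38.5% in EtOH embryos (42.3 ± 13.8 and 42.0 ± 2.62%, two-sided exact permutation test, p = 0.992, or 0.992 after adjustment for 3 genes). Tcf7l2 was found in 71.4 ± 8.55% (SD, n = 5) and 78.1 ± 12% (SD, n = 4, exact permutation p = 0.357, adjusted p = 0.810). Without thinning the means were 70.1 ± 15.2 and 59.8 ± 15.4% for Otx2 (exact permutation p = 0.278, adjusted p = 0.417) and 85.4 ± 8.39 and 83.2 ± 12.8% for Tcf7l2 (exact permutation p = 0.754). The 95% Wilson interval of such a share in 1 embryo spanned 9.89 to 40.6 points.

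The effect of EtOH in Cluster 20 was tested against that in the RGC clusters most like it, with an interaction term and the embryo as a block. Against Cluster 2, 1 of 11077 genes (0.00903%) was called. Nol4, a nucleolar protein gene, was at 506, 445, 504, 383 and 371 CPM in saline and 598, 632, 527 and 857 CPM in EtOH embryos in Cluster 20, but at 228, 170, 204, 180 and 172 CPM and 158, 108, 127 and 137 CPM in Cluster 2. Its treatment effects differed by 1.06 on the log2 scale (SE 0.16, adjusted p = 0.0143), while within Cluster 20 alone it did not pass (log2 fold change 0.53, SE 0.17, adjusted p = 0.269). Without S1-1, S2-4 or E2-1 the count was 0, without S2-2 it was 2, without E1-1 it was 6 and without E2-4 it was 3. At an unadjusted p under 0.05 there were 702 genes. Against Cluster 3 edgeR called 0 of 10881 genes, with 571 at an unadjusted p under 0.05, and the count was 2 without E1-1 and 1 without E2-1. The differences in effect for Mki67 (-0.63, SE 0.16, adjusted p = 0.271) and Top2a (-0.76, SE 0.18, adjusted p = 0.270) between Clusters 20 and 2 did not pass.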

How the data were processed

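The members and gene lists were chosen with earlier results of these data known. The authors aligned reads to mm10 and counted them with Cell Ranger at its default settings, kept nuclei with 500 to 10000 genes, clustered them after Harmony correction for batch and dam, and deposited raw UMI counts, 1 table per embryo and cluster (275 tables of 23513 genes). The strand of counting is not given in the sources used here, and embryo S2-3 was not analysed here.

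Counts of Cluster 20 were summed per embryo, where 9 of 11 embryos had at least 10 nuclei, and tested in edgeR 4.0.16 (TMM, filterByExpr, glmQLFit with the robust option, glmQLFTest) under R 4.3.3. DEGs had a Benjamini-Hochberg adjusted p under 0.05 over all genes tested and a rise of over 25% or a fall of over 20%, the study's limits. Interaction tests kept the embryo as a block. Phases were called with Seurat 5.3.0. Percentages were compared by exact permutation tests, two-sided, on group means, over 462 or 126 assignments, whose smallest p are 0.00216 and 0.00794. CPM is counts per 1000000 UMIs of the cluster in an embryo. Shares of nuclei were taken after random thinning to 3000 UMIs (628 nuclei). Wilson intervals and floors (3 counts) cover counting error only. The deposited tables hold between 147129 and 2318272 UMIs of Cluster 20 in each of the 9 embryos.

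Named genes were Tcf7l2, Ednrb and Top2a, called genes, members of the gene lists, the 12 genes with the highest ratio to the next cluster (mean of at least 20 CPM), the 10 with the highest coefficient of variation (at least 50 CPM) and genes the study names as changed. Genes most like Tcf7l2, the partners on the other strand, Nol4, and the caudal and Pax sets and the pair Six3 and Nkx2-1 were chosen after their values were seen. Shares of nuclei were adjusted over 3 genes, and 1 of the genes examined is not reported here. Positions are from GENCODE M21. Alternatives used DESeq2 1.42.0, limma 3.58.1, other filters and scaling, batch, dam, depth and each embryo left out in turn. edgeR, DESeq2 and limma were tested on simulated data. The lists for thalamic neurons, pan-neuronal genes, intermediate progenitors and the choroid plexus had 0 called members among the 5, 5, 3 and 1 genes tested.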

Additional observations from a re-analysis of the deposited data

Results flagged for a closer look

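Embryos that stood apart from the rest of their treatment group are given with the gap to the nearest embryo as a fraction of the group's range. Of 98 groups checked, 7 had such an embryo, and chance alone gives about 5%. S2-1 had the highest percentage of nuclei in Cluster 20 of the saline embryos (0.746) and the highest Tcf7l2 level (0.889). S2-2 had the highest saline levels of Pax3 (0.953), Rspo2 (0.790) and Gm29478 (0.825). S2-4 had the highest saline level of Gm26835 (0.747). Of the EtOH embryos, E1-1 had the highest Rspo2 level (0.970).

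Nol4 differed between clusters in its treatment effect, by 1.06 on the log2 scale in Cluster 20 minus Cluster 2 (edgeR interaction test, adjusted p = 0.0143). Against Cluster 3 the difference was 0.80 (SE 0.18, adjusted p = 0.501).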

How the results depend on the processing

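No paired analysis was possible because the embryo numbers in the labels do not pair saline with EtOH embryos. The number of DEGs in Cluster 20, 4, became 16 with DESeq2, 159 with limma voom and the dam as a random block, 195 without a filter on low counts, 1 with a minimum count of 20, 1 with at least 40 nuclei per embryo, and 0 with batch as a covariate, with counts summed per dam and with nuclei thinned to 2000 UMIs. With 1 embryo left out it ranged from 0 to 84. In the limma fit the correlation within dams was -0.101, and a negative value narrows the SE of a contrast between dams. Its 159 calls thus do not show that allowing for litters strengthens the result. A minimum of 40 nuclei leaves only E2-1 and E2-2 of dam E2 as EtOH embryos. Leaving out 1 embryo gave 0 to 6 genes for the effect in Cluster 20 against Cluster 2 and 0 to 2 against Cluster 3. The difference in median UMIs ranged from -3410 to -2055 (p from 0.0179 to 0.0571, exact permutation test), and it no longer passed without S1-1, S1-2, S2-1, S2-2 or E1-1.

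The difference in the percentage of nuclei was 0.0211 as a difference of medians and ranged from -0.677 to 0.0947 with 1 embryo left out. The G1 difference was 15 points at 2000 UMIs and 17.8 with the phase genes that Seurat supplies, both past the threshold, and 10.2 to 16.1 with 1 embryo left out, never past it. Phases with 1 embryo left out, for G1 and for S, are those of unthinned nuclei. With all 11 embryos it was 2.35. The S difference was -7.14 points at 2000 UMIs, -9.52 with the genes that Seurat supplies (not past the threshold), 6.38 with all 11 embryos, and -3.27 to 0.565 with 1 embryo left out, above 0 without S2-4 (0.326) and without E2-1. The Otx2 difference ranged from -4.21 to 4.76 points and was above 0 without S1-2 (0.192), S2-1 (0.296), S2-2 (4.76) or E2-4 (0.830). The Tcf7l2 difference was -2.20 without thinning. The log2 fold change of Ednrb was -0.19 with DESeq2, -0.041 without a filter, -0.0116 per dam, -0.0115 with all 11 embryos, -0.09 without S2-1, -0.19 without S2-2, -0.18 without E2-2, and -0.31 (without E2-1) to 0.23 (without E2-4) with 1 embryo left out.

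The 4 DEGs kept their direction under every alternative that tested them, with adjusted p from 0.00198 to 0.315 with 1 embryo left out, 0.0631 to 0.0856 with batch as a covariate and 0.0618 to 0.176 per dam. Mki67 had an adjusted p of 0.0245 with limma voom and the dam as a random block, where the correlation within dams was -0.101. The adjusted p was 0.00256 without a filter, but 0.249 with batch as a covariate, 0.259 per dam and 0.764 at 2000 UMIs. The median log2 fold change of the mitosis genes lay between -0.52 and -0.36, and that of the replication genes between -0.51 and -0.31, over 19 alternatives. Precision is limited by 30 to 220 nuclei per embryo, 4 EtOH embryos and 2 dams per treatment, and depth was lower in EtOH embryos.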

Other observations

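Among 4174 genes of at least 50 CPM in Cluster 20, the coefficient of variation between the 9 embryos had a median of 0.216, and the 10 genes with the highest values were Kcnmb2, Rspo2, C130073E24Rik, Gm20757, Gpc5, Hs6st3, Rnf220, Rspo3, Trpm3 and Greb1l. The highest embryo was S2-2 for 5 of them, E2-1 for 3, and E2-4 and S1-2 for 1 each. Trpm3, a cation channel gene, was at 864, 116, 304, 2353 and 167 CPM in saline embryos S1-1, S1-2, S2-1, S2-2 and S2-4 and at 279, 879, 337 and 237 CPM in EtOH embryos E1-1, E2-1, E2-2 and E2-4. Hs6st3, an enzyme that sulfates heparan chains, was at 360, 106, 166, 1342 and 79.8 CPM and 116, 221, 125 and 154 CPM. Kcnmb2, a potassium channel subunit, was at 337 CPM in E2-4 and at 43.6 CPM or less in the others. Rnf220, a ubiquitin ligase, was at 628 CPM in E2-1, 309 in S2-2, 222 in S2-1 and 182 in E2-2, and at 106 CPM or less in the other 5 embryos.

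Slc1a3, the glutamate transporter of radial glia, was at 697, 762, 444, 330 and 788 CPM in saline and 816, 175, 410 and 976 CPM in EtOH embryos, lowest in E2-1 and S2-2. Ptprz1, a receptor phosphatase of radial glia, was at 267 CPM in S2-2 and at 829 CPM or more in the other 8 embryos. Gm29478 lay between 5203 and 10156 CPM and Megf11 between 419 and 1248 CPM.

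Prox1, a transcription factor of thalamic and other neurons, had a mean of 57.5 CPM in saline and 120 CPM in EtOH embryos (log2 fold change 1.03, SE 0.26, adjusted p = 0.185 by edgeR).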
